A study of Mus musculus with 12 samples.

Results

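The integrin and laminin genes were taken as every gene row whose symbol names an integrin α chain (*Itga*), an integrin β chain (*Itgb*) or a laminin α, β or γ chain (*Lama*, *Lamb*, *Lamc*). The rule found 37 of the 36186 rows, 26 integrins (18 α and 8 β chains) and 11 laminins. No measured value entered the rule. Values were read by LCM and RNA-Seq in 12 libraries of E15.5 forelimb zeugopod, the limb segment of radius and ulna, all on a mixed 129/CD-1 background. Each WT compartment (resting, proliferative and hypertrophic) gave 3 libraries, and so did *aadd* mutants (*Hoxa9,10,11-/-;Hoxd9,10,11-/-*), whose small zeugopod was captured whole as 1 compartment. The labels call the hypertrophic compartment hyperproliferative and the *aadd* compartment resting, and the study's names are used here. The captured cells were mostly chondrocytes with some flanking perichondrium, and total RNA of 20 ng per library was amplified before sequencing. The study calls its 3 sets of compartments independent, and the labels do not say whether separate embryos gave them, so *P* values measure the spread between these libraries.

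Integrins are cell surface receptors made of 1 α and 1 β chain, which bind proteins of the extracellular matrix outside the cell and the actin cytoskeleton inside it through talin and kindlin. The α chain largely sets the ligand: α1, α2, α10 and α11 with β1 bind collagens, α3, α6 and α7 bind laminins, and α5, α8 and αv bind the RGD sequence of proteins such as fibronectin and osteopontin. Laminins are trimers of an α, a β and a γ chain and are main components of basement membranes and of the matrix that directly surrounds cells. In growth plate cartilage, loss of β1 integrin is known to disturb the columns of dividing chondrocytes.

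Depth appeared low, at an estimated 1890000 to 3240000 reads per library with a median of 2590000. NRPKM is RPKM normalized further between libraries by the authors. The estimates take it as plain RPKM, so the unknown scaling may shift them. They were read from the value that 1 read takes on single-exon genes of the olfactory, taste and keratin-associated families. On a transcript of 1 kb, 1 read was worth 0.309 to 0.530 NRPKM. The mean of 1407 such genes, which cartilage is not known to express, was 0.284 to 0.506 NRPKM in proliferative libraries, 0.0629 to 0.179 in resting, 0.0438 to 0.430 in hypertrophic (highest in replicate 1) and 0.0471 to 0.395 in *aadd*. The 6 mutated Hox genes carry frameshifts and kept transcripts, at 5.17 to 52.1 NRPKM in *aadd* and 4.34 to 30.5 in WT resting, so their level does not check the label. Chondrocyte markers (10 of 10 genes found) summed to 2589 to 5226 NRPKM in all libraries outside the hypertrophic group. Within that group, replicate 1 stood apart from replicates 2 and 3. Its chondrocyte markers summed to 3126 NRPKM, against 693 and 995 in replicates 2 and 3, while markers of hypertrophic chondrocytes summed to 1948, 3607 and 3949. Values without it are therefore given beside calls that involve the hypertrophic compartment.

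A level of 5 NRPKM in at least 3 of the 12 libraries was reached by 16 of the 37 genes, 12 integrins and 4 laminins, and 11 of these reached it in all 12 libraries. Another 4 reached it in 2 libraries, 3 in 1 library and 14 in none. The genes that passed with the fewest libraries were *Itga2*, with 3 libraries and a third-highest value of 10.6 NRPKM, and *Itga8* and *Lamb1*, with 5 libraries each and third-highest values of 7.35 and 7.74. The 4 that reached it in 2 libraries were *Lama2*, *Itgb3*, *Itgam* and *Itgb2*, whose third-highest values were 4.67, 3.88, 2.41 and 0.855 NRPKM. *Itga2* passed only through the 3 hypertrophic libraries and so had to differ between the groups. *Itga8* passed only through resting and *aadd* libraries, so the limit favours a fall from resting to the later WT compartments. *Itgb3*, *Itgb2* and *Itgam* were above 5 NRPKM in hypertrophic replicates 2 and 3 alone and failed the limit because of replicate 1. A call below means an unadjusted *P* of up to 0.05 with a fold change (FC) of at least 2 between WT compartments, or 1.5 between *aadd* and WT resting, in limma on log2(NRPKM + 0.1). These are the *P* and FC limits of the study. For *aadd* the study also ran an Audic-Claverie test on pooled reads, which found more differences than its moderated test and was not run here. The Benjamini-Hochberg adjusted *P* over all 10936 genes tested is given beside it.

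**Figure D1:**
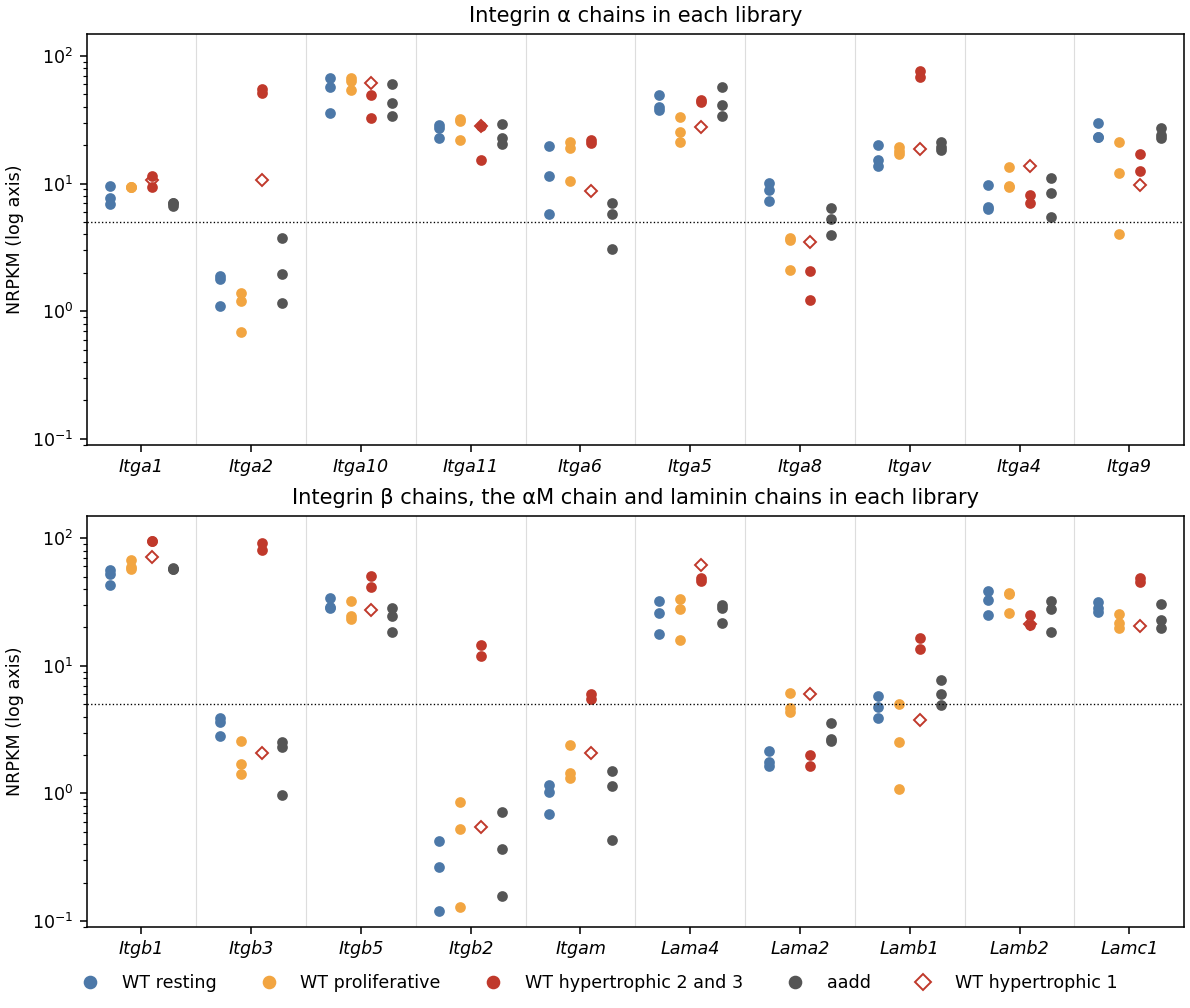
NRPKM on a log axis of 20 integrin and laminin genes in each of the 12 libraries, coloured by group, with hypertrophic replicate 1 as an open diamond and a dotted line at 5 NRPKM. *Itgb3* is at 91.9 and 80.3 in hypertrophic replicates 2 and 3 and at 3.88 or less in the other 10 libraries, while *Lama4* is highest in hypertrophic replicate 1.

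Among the collagen-binding chains, *Itga10* and *Itga11* were present at like levels in all 4 groups and *Itga2* was high in the hypertrophic compartment. *Itga10* encodes α10, the main collagen II receptor of chondrocytes, and was the α chain with the highest mean in each group other than the hypertrophic, where *Itgav* was higher. It was at 35.4, 56.8 and 67.2 NRPKM in resting replicates 1 to 3, 54.0, 64.1 and 67.7 in proliferative, 61.4, 32.8 and 49.1 in hypertrophic, and 42.7, 60.4 and 34.1 in *aadd*. The groups overlapped in every comparison, and no log2 difference passed the test (-0.41 ± 0.27 SE for hypertrophic against proliferative, 95% interval -1.07 to 0.24). *Itga11*, a receptor for fibrillar collagens found on mesenchymal cells, ranged from 15.4 to 32.0 NRPKM over the 12 libraries and was not called in any comparison. *Itga1*, a receptor for collagens including type IV, was the steadiest of the 4, at 6.70 to 11.5 NRPKM. Its row overlaps those of *Pelo* and *Gm10734*, and the use of strand in counting is not stated, so reads of the 3 genes may not be separated.

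*Itga2* (chr13:114835912-114932041 of mm10, minus strand) encodes α2, which pairs with β1 as a receptor for collagens on epithelial cells, fibroblasts and platelets. It was at 1.90, 1.80 and 1.11 NRPKM in resting replicates 1 to 3 and 1.21, 0.684 and 1.40 in proliferative. In the hypertrophic compartment it was at 10.6, 55.1 and 51.3 NRPKM, and in *aadd* at 1.16, 3.75 and 1.97. All 3 hypertrophic libraries lay above the other 9, with replicate 1 between replicates 2 and 3 and the rest. *Itga2* entered the test only through these 3 libraries, so a difference there is fixed by the limit and its *P* values are no support. The log2 difference was 4.75 ± 0.68 (SE, n = 3 per group) against proliferative, with a limma adjusted *P* of 0.110, and 4.23 ± 0.66 against resting, with a limma adjusted *P* of 0.0209. Without replicate 1 the values were 5.53 ± 0.32 (limma adjusted *P* of 0.00300, 0.00300 to 0.379 over all alternatives) and 5.002 ± 0.27 (0.000758, and 0.000758 to 0.0950 over all alternatives). *Itga2* supplied 5.27%, 18.3% and 16.5% of the summed α chain NRPKM in hypertrophic replicates 1 to 3.

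Of the laminin-binding chains, *Itga6* was the only one to pass the limit on expression. It encodes α6, the receptor for laminins on epithelial, endothelial and stem cells, and its libraries spread widely within each group. It was at 5.76, 19.6 and 11.5 NRPKM in resting, 10.5, 21.2 and 19.1 in proliferative, 8.72, 21.8 and 20.9 in hypertrophic, and 5.80, 7.09 and 3.07 in *aadd*. In each WT group replicate 1 was the lowest, and the *aadd* libraries overlapped only that one in resting. The log2 difference between *aadd* and WT resting was -1.10 ± 0.49, with a limma adjusted *P* of 0.553 and a 95% interval of -2.27 to 0.06, and was not called. It was called in 4 of 12 alternatives, those with the replicate number as a block, with a pseudocount of 1, without resting replicate 1 and without *aadd* replicate 2 (limma adjusted *P* of 0.307 to 0.986 over all alternatives). Among all α chains, the laminin-binding group (*Itga3*, *Itga6*, *Itga7*) took 2.53% to 3.67% of the summed NRPKM in *aadd*, below the 4.24% to 9.87% of WT resting.

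*Itga7*, the α chain of the laminin receptor of skeletal muscle, did not pass the limit. It was at 2.58, 2.90 and 7.26 NRPKM in the hypertrophic compartment and at no more than 0.906 in the other 9 libraries. With no filter on low values it was called against WT resting, with a log2 difference of 3.71 ± 0.47 and a limma adjusted *P* of 0.0329, and against proliferative, with 2.68 ± 0.69 and 0.288. All 3 hypertrophic libraries were high, replicate 1 included. Skeletal muscle markers (10 of 10 found, none at 0 in a whole group) summed to 21.7 to 47.8 NRPKM in hypertrophic libraries, 9.86 to 18.8 in resting, 12.05 to 142 in proliferative and 19.4 to 62.6 in *aadd*, and their part in the result was not tested. The row of *Itga7* overlaps that of *Mettl7b*. *Itga3*, a laminin receptor of epithelia, stayed between 0.347 and 1.69 NRPKM.

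Among the RGD-binding chains, *Itga8* was lower outside the resting compartment and *Itgav* was high in hypertrophic replicates 2 and 3. *Itga8* (chr2:12106660-12301920, minus strand) encodes α8, the nephronectin receptor of mesenchymal cells. It was at 10.1, 8.91 and 7.35 NRPKM in resting, 3.62, 2.09 and 3.77 in proliferative, 3.49, 2.07 and 1.22 in hypertrophic, and 5.28, 3.98 and 6.40 in *aadd*. No resting value overlapped another group, and the *aadd* values lay between resting on one side and both later WT compartments on the other. It fell by 1.48 ± 0.27 on the log2 scale from resting to proliferative, with a limma adjusted *P* of 0.0870 and a call in 6 of 6 fits that left out 1 library. From resting to hypertrophic it fell by 2.02 ± 0.38, with a limma adjusted *P* of 0.0355 and again a call in 6 of 6. No proliferative or hypertrophic library reached 5 NRPKM, so the limit favours both falls and these *P* values are no support. With no filter on low values both falls were still called, neither with a limma adjusted *P* under 0.05. Against WT resting, *aadd* was lower by a log2 difference of -0.75 ± 0.23, or 1.69-fold, with a limma adjusted *P* of 0.355. That call was lost without *aadd* replicate 2 and in a fit of all 12 libraries, where the log2 difference stayed between -0.91 and -0.58 over all alternatives. The row of *Itga8* overlaps that of *E030013I19Rik*.

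*Itgav* (chr2:83724397-83806916, plus strand) encodes αv, which pairs with β1, β3, β5, β6 and β8 to bind vitronectin, osteopontin and latent TGFβ. It was at 15.2, 13.8 and 20.1 NRPKM in resting, 18.0, 17.0 and 19.2 in proliferative and 18.2, 19.4 and 21.0 in *aadd*. In the hypertrophic compartment it was at 18.8, 76.5 and 68.2. Replicate 1 fell among the libraries of the other groups, and replicates 2 and 3 were 3.25-fold or more above all of them. The log2 difference against proliferative was 1.35 ± 0.54, with a limma adjusted *P* of 0.254 and a call in 1 of 6 fits that left out 1 library, the one without replicate 1. There it was 1.99 ± 0.17 (limma adjusted *P* of 0.00541, and 0.00541 to 0.578 over all alternatives). Against resting it was 1.51 ± 0.55 (limma adjusted *P* of 0.149), a call that was lost without resting replicate 1 or 2 and without hypertrophic replicate 2 or 3, and 2.15 ± 0.21 without replicate 1 (0.00291, and 0.00291 to 0.368 over all alternatives). The row overlaps the pseudogene *Dnmt3l-ps1*.

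*Itga5*, the fibronectin receptor chain, was at 37.5, 39.6 and 49.6 NRPKM in resting, 33.4, 21.2 and 25.6 in proliferative, 27.6, 45.1 and 43.6 in hypertrophic, and 41.6, 57.6 and 34.0 in *aadd*. All proliferative values lay below all resting ones, by a log2 difference of -0.67 ± 0.23 (limma adjusted *P* of 0.230), which is under the fold limit. *Itga2b*, the αIIb chain of platelets and megakaryocytes, stayed at 0.180 to 0.972 NRPKM, and at 0.188, 0.302 and 0.380 in the hypertrophic replicates.

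The chains α4 and α9 bind fibronectin splice variants, VCAM1, tenascin C and osteopontin. *Itga9* was at 29.7, 23.04 and 23.004 NRPKM in resting and 27.03, 24.2 and 22.8 in *aadd*, against 21.3, 4.04 and 12.1 in proliferative and 9.68, 17.2 and 12.5 in hypertrophic. All proliferative and all hypertrophic libraries lay below all resting libraries, and resting and *aadd* overlapped (log2 difference -0.03 ± 0.18, 95% interval -0.44 to 0.39). Proliferative replicate 2 carried much of the first difference, which was -1.30 ± 0.57 (limma adjusted *P* of 0.314) and not called. With the replicate number as a block, the pairing that these 2 groups showed, it was called (limma adjusted *P* of 0.224, and 0.154 to 0.539 over all alternatives). Against hypertrophic, the resting compartment was 1.95-fold higher (log2 difference of hypertrophic minus resting -0.97 ± 0.26, limma adjusted *P* of 0.0784), just under the fold limit. *Itga4* ranged from 5.48 to 13.8 NRPKM, overlapped in all comparisons and shares its row's position with *Cerkl*.

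Of the β chains, *Itgb1* was the most abundant in all 12 libraries, with *Itgb3* close to it in hypertrophic replicates 2 and 3. *Itgb1* (chr8:128685654-128733579, plus strand) encodes β1, the shared partner of all collagen-binding and most laminin-binding α chains. It was at 56.3, 43.1 and 52.6 NRPKM in resting, 59.6, 57.7 and 67.9 in proliferative, 71.0, 94.2 and 95.8 in hypertrophic, and 56.9, 57.1 and 58.05 in *aadd*. The 3 WT compartments did not overlap one another, in the order resting, proliferative, hypertrophic. The log2 steps were small, 0.29 ± 0.18 from resting to proliferative and 0.49 ± 0.20 from proliferative to hypertrophic (limma adjusted *P* of 0.437 and 0.254). The whole difference from resting to hypertrophic was 0.78 ± 0.20 (limma adjusted *P* of 0.0778), or 1.71-fold, under the fold limit. The *aadd* libraries all lay above resting, the lowest by less than 1 NRPKM, with a log2 difference of 0.19 ± 0.17 and a 95% interval of -0.20 to 0.58.

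*Itgb3* (chr11:104608000-104670471, plus strand) encodes β3, which pairs with αv as the vitronectin receptor of osteoclasts and with αIIb as the fibrinogen receptor of platelets. It was at 2.81, 3.88 and 3.65 NRPKM in resting, 1.71, 2.57 and 1.42 in proliferative and 0.974, 2.54 and 2.31 in *aadd*. In the hypertrophic compartment it was at 2.08, 91.9 and 80.3. Replicate 1 was no higher than the other groups, and replicates 2 and 3 were 20.7-fold or more above all 10 other libraries. *Itgb3* then supplied 37.2% and 32.8% of the summed β chain NRPKM, against 1.10% to 4.80% elsewhere, and the share of *Itgb1* was 38.2% and 39.2%, against 53.2% to 68.2%. All *aadd* values of *Itgb3* lay below all resting ones. Under a limit of 5 NRPKM in 2 libraries it was called lower in *aadd*, with a limma adjusted *P* not under 0.05. With no filter it was not called there.

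*Itgb2* (chr10:77530348-77565674, plus strand) and *Itgam* encode β2 and αM, which together form the complement receptor of macrophages and neutrophils. *Itgb2* was at 0.550, 14.6 and 11.9 NRPKM in hypertrophic replicates 1 to 3 and at 0.119 to 0.855 in the other 9 libraries. *Itgam* was at 2.06, 6.04 and 5.53 in the hypertrophic replicates and at 0.432 to 2.41 elsewhere. Both showed the pattern of *Itgb3*, low in replicate 1 and high in replicates 2 and 3. Under a limit of 5 NRPKM in 2 libraries, chosen after seeing the data, the log2 differences between hypertrophic and proliferative were 3.70 ± 1.47 for *Itgb3*, 3.23 ± 1.30 for *Itgb2* and 1.26 ± 0.47 for *Itgam* (limma adjusted *P* of 0.252, 0.255 and 0.237). When replicate 1 was also left out they were 5.47 ± 0.29, 4.68 ± 0.63 and 1.74 ± 0.30 (limma adjusted *P* of 0.00297, 0.0134 and 0.0226). With no filter and all libraries none of the 3 was called against proliferative (limma adjusted *P* of 0.431 for each), while against resting *Itgam* and *Itgb2* were (2.02 ± 0.48 and 3.81 ± 1.27, limma adjusted *P* of 0.130 and 0.227). These genes enter the test through replicates 2 and 3, so a difference there is fixed by the limit and its *P* is no support.

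*Itgb5*, which pairs with αv, was at 28.7, 28.3 and 34.1 NRPKM in resting, 31.9, 23.5 and 24.5 in proliferative, 27.2, 41.4 and 50.4 in hypertrophic, and 24.8, 28.6 and 18.5 in *aadd*. Hypertrophic replicates 2 and 3 were the highest of the 12 libraries and replicate 1 was not, with a log2 difference of 0.54 ± 0.28 against proliferative (limma adjusted *P* of 0.328). The epithelial and other chains *Itgb4*, *Itgb6*, *Itgb7* and *Itgb8* stayed at or below 5.15 NRPKM. *Itgb7* and *Itgb8* each passed 5 in proliferative replicate 3 alone, at 5.15 and 5.12. The leukocyte α chains *Itgad*, *Itgae*, *Itgal* and *Itgax* stayed at or below 2.62 NRPKM, and the row of *Itgal*, the highest of them, spans many other genes. Fits with no filter called *Itgb6* lower from proliferative to hypertrophic and *Itgad* higher from resting to proliferative. They also called *Itgal* and *Itgax* higher from resting to hypertrophic. None of these had a limma adjusted *P* under 0.05.

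**Figure D2:**
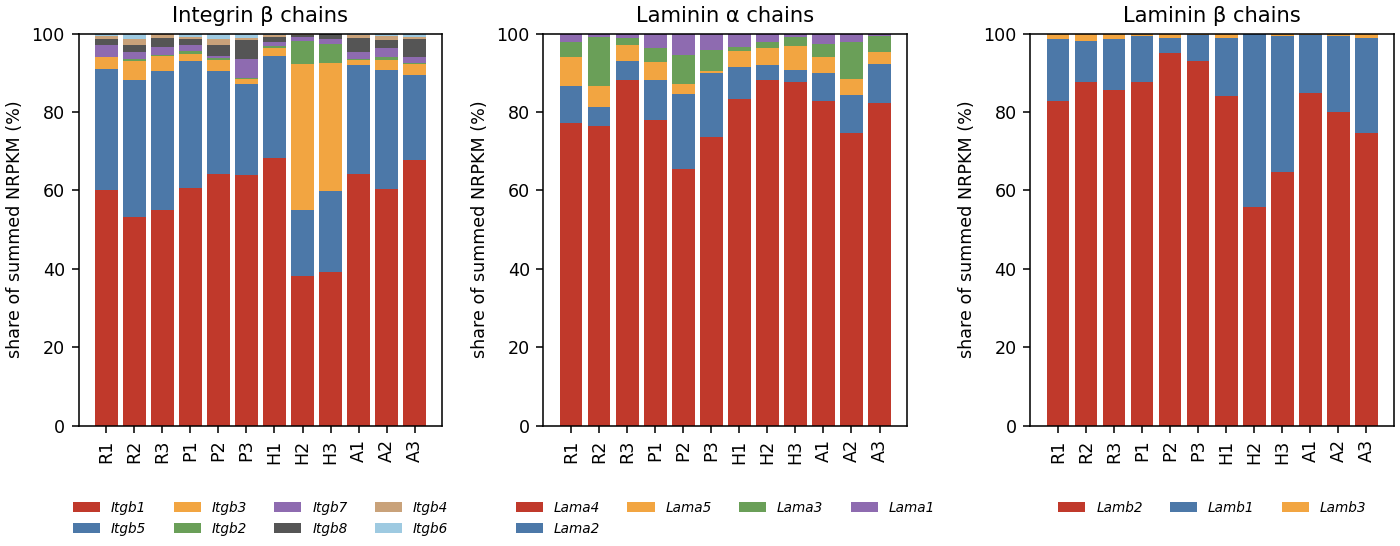
Share of the summed NRPKM of the 8 integrin β, 5 laminin α and 3 laminin β chains that each gene took, as stacked bars for each library (R, WT resting, P, WT proliferative, H, WT hypertrophic, A, *aadd*, with the replicate number). *Itgb3* takes 37.2% and 32.8% of the β integrin sum and *Lamb1* 44.1% and 34.9% of the β laminin sum in hypertrophic replicates 2 and 3, while *Lama4* is the largest α laminin in every library.

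Laminin transcripts came mainly from *Lama4*, *Lamb2* and *Lamc1*, chains that occur together in a laminin of vessel walls and muscle. *Lama4* supplied 76.5% to 88.3% of the laminin α sum in resting, 65.4% to 77.9% in proliferative, 83.2% to 88.2% in hypertrophic and 74.7% to 82.7% in *aadd*. *Lamb2* was the larger β chain in every library.

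*Lama4* (chr10:38965515-39110188, plus strand) was at 17.6, 25.9 and 32.1 NRPKM in resting, 33.2, 15.9 and 27.8 in proliferative and 30.0, 28.2 and 21.6 in *aadd*. In the hypertrophic compartment it was at 61.1, 45.8 and 48.9. All 3 hypertrophic libraries lay above the other 9, with replicate 1 the highest, unlike the pattern of *Itgb3* and *Itgav*. The log2 difference was 1.07 ± 0.31 against proliferative and 1.07 ± 0.27 against resting (limma adjusted *P* of 0.183 and 0.0683). Neither call held without replicate 1, where the differences were 0.95 ± 0.35 and 0.95 ± 0.28, under the fold limit. The first was also lost without proliferative replicate 2 and the second without resting replicate 1, at log2 differences of 0.76 and 0.84, and both were lost under quantile normalization, at 0.97 and 0.98.

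*Lamb1* (chr12:31265294-31329639, plus strand), the β chain of most embryonic laminins, was at 4.75, 3.93 and 5.84 NRPKM in resting, 4.99, 1.09 and 2.53 in proliferative, 3.78, 16.6 and 13.5 in hypertrophic and 4.92, 7.74 and 6.01 in *aadd*. Hypertrophic replicates 2 and 3 were at least 1.75-fold above all other libraries, and replicate 1 lay inside the range of the others. The log2 difference against proliferative was 1.93 ± 0.73 (limma adjusted *P* of 0.241), and was called in 2 of 6 fits that left out 1 library. Without replicate 1 it was 2.58 ± 0.61 (limma adjusted *P* of 0.0454, and 0.0454 to 0.560 over all alternatives). The call was lost without proliferative replicate 2 or 3 and without hypertrophic replicate 2 or 3, where the log2 difference was 1.39 or more.

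*Lamc1* (chr1:153218922-153332786, minus strand), the γ chain shared by most laminins, moved less. It was at 26.2, 28.4 and 31.6 NRPKM in resting, 25.6, 19.6 and 21.8 in proliferative, 20.3, 48.3 and 45.5 in hypertrophic and 22.8, 30.4 and 19.8 in *aadd*. With all libraries it was not called against proliferative (log2 difference 0.68 ± 0.37, limma adjusted *P* of 0.344), and without replicate 1 it was (1.08 ± 0.19, limma adjusted *P* of 0.0230, and 0.0230 to 0.687 over all alternatives). *Lamb2*, the β chain of neuromuscular and vascular laminins, went the other way, at 21.2, 21.0 and 25.05 NRPKM in hypertrophic and 37.5, 25.7 and 36.6 in proliferative, with no overlap and a log2 difference of -0.55 ± 0.22 (limma adjusted *P* of 0.248), under the fold limit.

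*Lama2*, the α chain of muscle and nerve laminin, passed 5 NRPKM in 2 libraries. It was at 2.15, 1.64 and 1.75 NRPKM in resting, 4.36, 4.67 and 6.13 in proliferative, 5.99, 2.01 and 1.64 in hypertrophic and 2.66, 3.59 and 2.58 in *aadd*. Proliferative libraries and hypertrophic replicate 1 were high, and both *aadd* and proliferative lay above resting without overlap. Under the limit of 5 NRPKM in 2 libraries, the log2 difference between proliferative and resting was 1.40 ± 0.20 (limma adjusted *P* of 0.0569) and with no filter 1.40 ± 0.24 (0.144). *Lama2* met that limit only through proliferative replicate 3 and hypertrophic replicate 1, so the first *P* is no support. Against resting, *aadd* was called higher in both settings, with no limma adjusted *P* under 0.05. *Lama1* was at 1.34 to 1.63 NRPKM in proliferative and 0.311 to 0.515 in resting, a difference that was called with no filter (1.69 ± 0.24, limma adjusted *P* of 0.0953). Hypertrophic replicate 1 had 2.47 NRPKM of *Lama1*. The mean of the sensory genes given above was also high in proliferative libraries and in hypertrophic replicate 1, and its part in these low values was not tested. *Lama3* and *Lama5* stayed at or below 4.24 NRPKM, and *Lamb3* and *Lamc3* at or below 0.877. Some of these low genes were called with no filter, none with a limma adjusted *P* under 0.05. *Lama5* was higher in hypertrophic than in proliferative. Against resting, *Lamc3* was higher in proliferative and hypertrophic, and *Lamb3* was lower in hypertrophic and *aadd*.

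**Figure D3:**
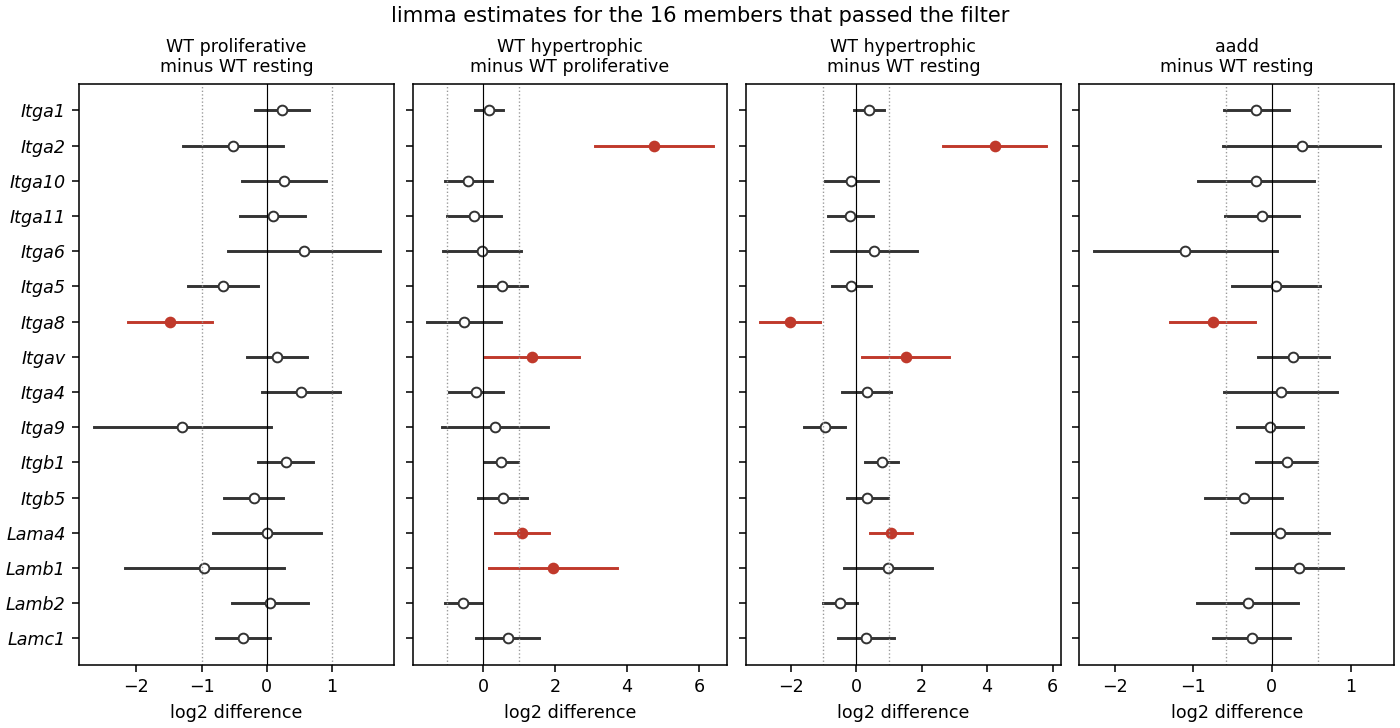
Log2 differences from limma (points) with 95% intervals (bars) for the 16 genes that passed the limit, in 4 comparisons with 3 libraries per group, filled red where called and open otherwise, with dotted lines at the fold limit. Calls number 1, 4, 4 and 1 from left to right, and *Itga8* lies below zero in the 3 comparisons with WT resting.

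The counts of calls can be read against those of all genes. From resting to proliferative, 0 of 16 rose and 1 fell (*Itga8*), against 2.56% and 2.97% of all 10936 genes. *Itga8* passed the limit only through resting and *aadd* libraries, which favours this fall. With the replicate number as a block, 2 fell (*Itga8* and *Itga9*), against 3.41% of all genes. By limma adjusted *P* none of the 16 passed, against 0.622% of all genes, and 2 had an unadjusted *P* of up to 0.05. The groups did not overlap for 5 of 16, against 24% of all genes, and the median log2 difference was 0.03, against -0.06 for all genes.

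From proliferative to hypertrophic, 4 of 16 rose (*Itga2*, *Itgav*, *Lama4* and *Lamb1*) and 0 fell, against 5.32% and 4.34% of all genes. *Itga2* had to differ here, since it passed the limit only through the hypertrophic libraries. None of the 16 passed by limma adjusted *P*, and 0% of all genes did, with 6 of the 16 at an unadjusted *P* of up to 0.05. The groups did not overlap for 4 of 16, against 24.2% of all genes. Without hypertrophic replicate 1, *Itga2*, *Itgav*, *Lamb1* and *Lamc1* rose with a limma adjusted *P* under 0.05 and at least 2-fold, and none fell so, against 7.14% and 6.87% of all genes. The median log2 difference was 0.41 with replicate 1 and 0.58 without, against 0.04 and 0.07 for all genes, with *Itga2* in both medians.

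From resting to hypertrophic, 3 of 16 rose (*Itga2*, *Itgav* and *Lama4*) and 1 fell (*Itga8*), against 5.84% and 7.2% of all genes. Here too *Itga2* had to differ because of the limit, and the limit favoured the fall of *Itga8*. By limma adjusted *P*, *Itga2* and *Itga8* passed, against 6.36% of all genes. The groups did not overlap for 5 of 16, against 32% of all genes. Without replicate 1, *Itga2*, *Itgav* and *Lamb1* rose and *Itga8* fell with a limma adjusted *P* under 0.05 and at least 2-fold, against 8.23% and 8.33% of all genes. *Itgb1* and *Lamc1* also had a limma adjusted *P* under 0.05 there, with log2 differences of 0.92 and 0.71, under the fold limit. The 3 comparisons with WT resting share its libraries, and each WT compartment enters at least 2 of the 4 comparisons, so their values are given side by side and not as independent.

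Between *aadd* and WT resting, 0 of 16 rose and 1 fell (*Itga8*), against 3.78% and 2.78% of all genes. None of the 16 passed by limma adjusted *P*, against 0.119% of all genes, and 1 had an unadjusted *P* of up to 0.05. The groups did not overlap for 2 of 16 (*Itga8* and *Itgb1*), against 15.4% of all genes. The median log2 difference was -0.07, against 0.01 for all genes. A difference under the 1.5-fold limit cannot be called, whatever its interval. Intervals for most members were wide, and some reached past that limit. On the log2 scale they were, for example, -0.95 to 0.33 for *Lamb2* and -0.94 to 0.53 for *Itga10*. Differences above 1.5-fold could therefore be missed for such members.

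Over all 4 groups, limma's moderated F test passed *Itga2*, *Itga8* and *Itgb1* (adjusted *P* of 0.00243, 0.0155 and 0.0423), 3 of 16 against 13.8% of all genes. Of these, *Itga2* had to differ between the groups because of the limit, and *Itga8* passed it only through resting and *aadd* libraries. *Itgb1* was lost under quantile normalization, the replicate block and no filter and when any library but hypertrophic replicate 1 was left out, and *Itga8* under no filter. Without hypertrophic replicate 1, 8 of 16 passed, against 28.1% of all genes. In hypertrophic replicates 2 and 3, 6 of the 16 (*Itga2*, *Itgav*, *Lamb1*, *Lamc1*, *Itgb1* and *Itgb5*) were above all 10 other libraries, against 16.4% of all genes. By at least 2-fold, *Itgav* was, and *Itga2*, which could pass the limit only by being high in that group, against 1.94% of all genes. Of the 21 genes below the limit, 5 were above, 3 of them by at least 2-fold (*Itgb3*, *Itgb2* and *Itgam*), against 7.33% and 3.63% of the 12134 rows below the limit that were above 0 in some library.

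Markers of other cell types moved in the same libraries. Osteoclast markers (10 of 10 found, 4 of the 5 tested called higher in hypertrophic against proliferative) summed to 70.3, 1308 and 963 NRPKM in hypertrophic replicates 1 to 3. They summed to 51.0 to 70.4 in resting, 46.9 to 67.8 in proliferative and 40.9 to 64.8 in *aadd*, where *Ocstamp* and *Dcstamp* were at 0 in all 3 libraries. Macrophage markers (10 of 10) summed to 25.8, 284 and 230 in the hypertrophic replicates and to 14.8 to 21.4 in resting, 20.5 to 27.7 in proliferative (*C1qa* at 0) and 14.6 to 44.5 in *aadd*. Endothelial markers (10 of 10) summed to 24.4, 324 and 227 in the hypertrophic replicates and to 15.2 to 33.2 in resting, 10.6 to 25.5 in proliferative (*Cldn5* at 0) and 18.3 to 59.9 in *aadd*. These 3 lists were at the level of the other groups in replicate 1 and far above it in replicates 2 and 3, as were *Itgb3* and *Itgb2*. *Itgav* and *Lamb1* had the same order by less, with replicates 2 and 3 at least 3.25-fold and 1.75-fold above all other libraries. Erythroid markers (8 of 10 found) summed to 34.2, 154 and 168 in the hypertrophic replicates, 27.1 to 47.3 in resting, 30.9 to 56.1 in proliferative (*Klf1* at 0) and 34.8 to 80.1 in *aadd*, and those of lymphocytes and granulocytes (10 of 10, *Elane* at 0 in all libraries) to 6.90, 44.0 and 15.9, 2.74 to 2.99, 2.97 to 8.86 and 2.34 to 8.38. Schwann cell markers (8 of 8, *Foxd3* at 0 in all libraries) went the other way, at 165, 57.4 and 66.5 in the hypertrophic replicates, 217 to 239 in resting, 135 to 179 in proliferative and 224 to 285 in *aadd*. The part of these lists in the result was not tested, and in bulk samples fewer cells of a type and less RNA per cell cannot be told apart.

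Platelet and megakaryocyte markers (8 of 8 found) did not share this order, at 19.5, 6.45 and 16.8 NRPKM in the hypertrophic replicates, 7.69 to 16.1 in resting (*Gp9* and *Gp5* at 0), 16.8 to 40.7 in proliferative and 8.63 to 13.7 in *aadd* (*Gp9* at 0 in both). Perichondrium and fibroblast markers (10 of 10) summed to 920, 1592 and 2375 in the hypertrophic replicates, 505 to 908 in resting, 640 to 1437 in proliferative and 530 to 1200 in *aadd*, and osteoblast markers (10 of 10, *Bglap2* at 0 outside the hypertrophic group) to 1606, 2298 and 3380, 173 to 381, 420 to 1136 and 122 to 409. For *Lama4*, which was highest in replicate 1, the endothelial list in that replicate stood at the level of the other groups. Pericyte and smooth muscle markers (8 of 8) summed to 65.9, 59.7 and 66.2 NRPKM in the hypertrophic replicates. They summed to 75.0 to 124 in resting, 72.5 to 99.98 in proliferative and 72.2 to 103 in *aadd*. The part of either list in the level of *Lama4* was not tested.

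**Figure D4:**
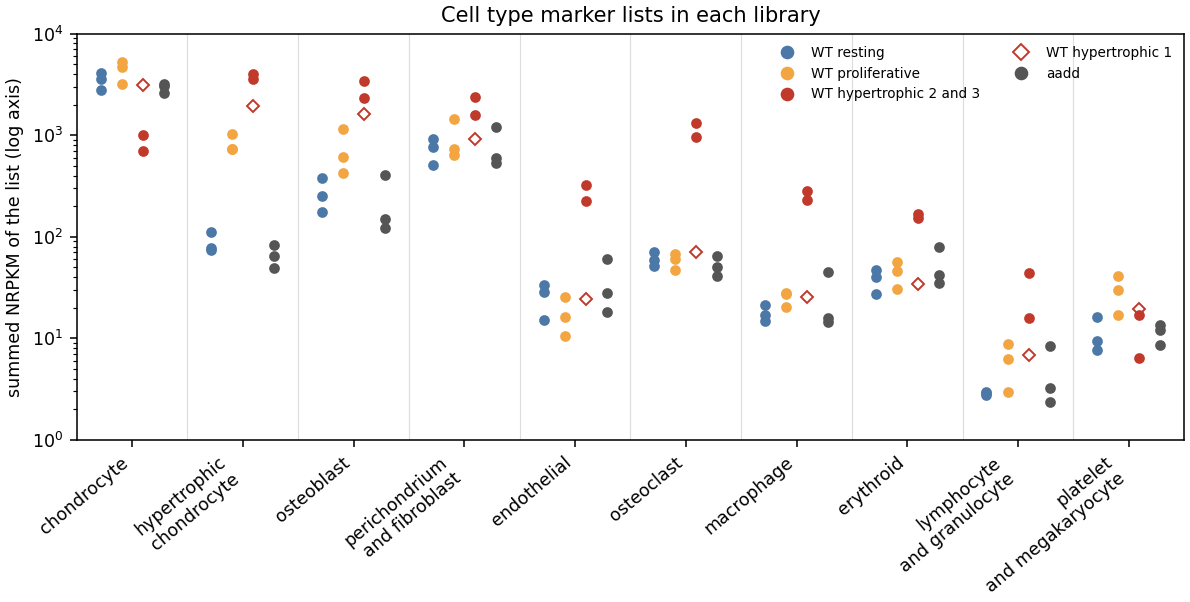
Summed NRPKM on a log axis of 10 cell type marker lists in each of the 12 libraries, coloured by group, with hypertrophic replicate 1 as an open diamond. Replicate 1 is at 70.3 for osteoclast and 24.4 for endothelial markers, among the other groups, while replicates 2 and 3 are above all other libraries for both.

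Of 14 basement membrane partners, the other proteins that laminins are assembled with, 9 were tested. Calls in this and the other partner lists stand beside the shares of all genes given above for the members in each comparison. From resting to proliferative 0 rose and 1 fell (*Col4a2*, a chain of collagen IV, log2 difference -1.19 ± 0.42). From proliferative to hypertrophic *Col4a5* rose (1.30 ± 0.21) and *Col15a1* and *Nid2* fell (-1.23 ± 0.18 and -1.38 ± 0.34), from resting to hypertrophic *Col4a5* rose, and none was called in *aadd*. Without hypertrophic replicate 1, 3 rose (*Col4a1*, *Col4a2* and *Col4a5*) and 3 fell (*Col15a1*, *Hspg2* and *Nid2*) from proliferative with a limma adjusted *P* under 0.05 and at least 2-fold, and 1 rose (*Col4a1*) and 1 fell (*Nid2*) from resting, against the shares of all genes given above for the members. *Nid2*, which links laminin to collagen IV, was at 99.4, 144 and 133 NRPKM in proliferative, 76.2, 34.2 and 41.1 in hypertrophic, 73.1, 87.1 and 80.1 in resting and 64.1, 60.5 and 41.7 in *aadd*.

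Genes of the adhesion machinery that joins integrins to actin were 27, with 21 tested. *Lims2* rose and *Tns1* fell from resting to proliferative (1.75 ± 0.32 and -1.44 ± 0.41). From proliferative to hypertrophic *Src* rose (1.34 ± 0.38) and *Lims2* fell, and from resting to hypertrophic none was called. *Lims2* was at 17.2, 2.98 and 2.13 NRPKM in hypertrophic replicates 1 to 3 and at 16.3 to 25.6 in proliferative, so replicate 1 overlapped. Without hypertrophic replicate 1, by the same 2 criteria, 4 rose (*Src*, *Cd151*, *Tln1* and *Vcl*) and 2 fell (*Lims2* and *Tenc1*) from proliferative, and 4 rose (*Bcar1*, *Cd151*, *Tln1* and *Vcl*) and 1 fell (*Tenc1*) from resting. In *aadd* 0 rose and 1 fell, *Cd151*, a tetraspanin that binds laminin-binding integrins (-0.66 ± 0.17). With all libraries no called gene of this list had a limma adjusted *P* under 0.05, and *Tns1* had one from resting to hypertrophic (-0.83 ± 0.16, 0.0345), under the fold limit.

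Matrix ligands of integrins showed larger differences. Of 20 genes, 16 were tested. From proliferative to hypertrophic 4 were higher and 4 lower, against 5.32% and 4.34% of all genes, and 0 passed by limma adjusted *P*. From resting to hypertrophic 6 were higher and 3 lower, against 5.84% and 7.2% of all genes, and 5 passed by limma adjusted *P*. Without hypertrophic replicate 1 and by the 2 criteria above, 4 rose and 4 fell from proliferative and 7 rose and 3 fell from resting. *Spp1*, encoding osteopontin, a ligand of αvβ3, was at 24.1, 1083 and 979 NRPKM in hypertrophic replicates 1 to 3 and at 6.04 to 18.3 in the other 9 libraries. It had a log2 difference of 4.44 ± 1.47 against proliferative (limma adjusted *P* of 0.206), and of 6.25 without replicate 1, where it too was far lower than in 2 and 3. *Ibsp*, encoding bone sialoprotein, another RGD ligand, was at 4.99 to 6.60 NRPKM in resting, 170, 82.2 and 278 in proliferative, 718, 968 and 1331 in hypertrophic and 4.96 to 7.57 in *aadd*. It rose from resting to proliferative by 4.70 ± 0.43 (limma adjusted *P* of 0.0143), and all hypertrophic libraries, replicate 1 included, lay above all proliferative ones. *Npnt*, the nephronectin ligand of α8, was at 0.601 to 3.13 NRPKM in resting, 13.7, 2.27 and 8.58 in proliferative and 39.5, 15.3 and 25.5 in hypertrophic, and rose by 3.77 ± 0.65 from resting to hypertrophic (limma adjusted *P* of 0.0289), where *Itga8* fell. Between *aadd* and WT resting *Ltbp1*, which holds latent TGFβ in the matrix, rose (0.98 ± 0.24) and *Mfge8*, an RGD ligand of αv integrins, fell (-1.13 ± 0.29), with limma adjusted *P* of 0.275 and 0.282. Some of these ligands are also bone cell markers and stand in those lists too.

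Sequences before the start sites of 23 of the 37 genes were at hand (RefSeq, GRCm38.p6). Those of 4 genes are shown, picked by hand from the members that were highest in hypertrophic replicates 2 and 3. Other members were highest there too and are not shown. In hypertrophic replicate 1 *Itga2* was above the other groups, and *Itgav*, *Itgam* and *Lamb1* were not. Each sequence is the 250 bases before the start, written 5′ to 3′ on the gene's strand, with capitals at GAGGAA, a core of PU.1-type Ets sites, on either strand. The windows are chr13:114932101-114932350 for *Itga2*, chr2:83724147-83724396 for *Itgav*, chr7:128062390-128062639 for *Itgam* and chr12:31265043-31265292 for *Lamb1*.
Itga2: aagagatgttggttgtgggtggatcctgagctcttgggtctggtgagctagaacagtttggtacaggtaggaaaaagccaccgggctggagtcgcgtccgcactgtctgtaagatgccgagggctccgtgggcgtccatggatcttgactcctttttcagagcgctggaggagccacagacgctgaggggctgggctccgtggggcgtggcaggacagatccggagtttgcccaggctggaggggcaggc
Itgav: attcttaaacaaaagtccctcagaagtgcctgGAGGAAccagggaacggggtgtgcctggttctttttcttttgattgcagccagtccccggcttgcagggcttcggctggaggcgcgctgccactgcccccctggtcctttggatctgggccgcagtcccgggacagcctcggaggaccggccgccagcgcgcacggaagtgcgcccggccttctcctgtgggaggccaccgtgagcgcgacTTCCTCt
Itgam: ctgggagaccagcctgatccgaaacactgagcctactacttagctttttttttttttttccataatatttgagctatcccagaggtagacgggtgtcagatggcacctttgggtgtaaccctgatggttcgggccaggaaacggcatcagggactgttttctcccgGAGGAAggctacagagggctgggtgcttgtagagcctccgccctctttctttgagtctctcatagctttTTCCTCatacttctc
Lamb1: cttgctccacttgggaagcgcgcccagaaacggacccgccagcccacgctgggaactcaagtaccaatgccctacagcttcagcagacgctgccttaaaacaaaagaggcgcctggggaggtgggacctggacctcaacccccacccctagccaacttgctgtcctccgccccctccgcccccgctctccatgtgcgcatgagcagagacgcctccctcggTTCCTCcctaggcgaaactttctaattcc
GAGGAA was found 2 times in *Itgav* and *Itgam* and 1 time in *Lamb1*, and was not found in *Itga2*, against 23.3% of 32851 such windows in all. It was also not found in the window of *Itga8*, which was searched too. TGANTCA (AP-1) and TGTGGT (RUNX), searched on both strands with no overlap with the first, were in none of the 4 windows, and in 6.75% and 14.0% of all windows. The 4 genes were picked from these data, so their matches are not a rate to set against the shares of all windows. A match is a match of letters only, and control of these genes by such factors was not tested.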

How the data were processed

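Chondrocytes of E15.5 zeugopods were isolated by LCM, and the authors computed the deposited RPKM values (NRPKM) in GeneSpring after removing low-quality, duplicate and multiply aligned reads. The submitters' processing notes name TopHat and mm10, and the normalization between libraries and the use of strand are not given in the sources used here. Reads were not analysed here, and no counts were at hand.

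Statistics were computed with limma 3.58.1 (R 4.3.3) on log2(NRPKM + 0.1), and tables and plots in Python 3.11.15 (numpy 2.4.6, pandas 2.3.3, matplotlib 3.10.9). The filter of the study, 5 NRPKM in 3 or more of the 12 libraries, left 10936 genes. Pairwise fits were moderated, without covariates, over the 6 libraries concerned. Fold changes are on this scale and understate those of low genes. A moderated F test in limma covered all 4 groups. Depth was estimated from the most frequent value of single-exon sensory and keratin-associated genes, taken as 1 read, with NRPKM taken as plain RPKM. It covers counting error only.

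All genes that match the symbol rule entered the counts, and the values of 1 item are not reported here. Those past the filter are given in full and the others by range or count, except *Itga7*, *Itgb3*, *Itgb2*, *Itgam*, *Lama1* and *Lama2*, which were chosen for full values after the data were seen. Of each list of partner genes, up to 4 called without overlap and with the largest fold change per comparison were eligible to be named. Outside that rule, genes from fits without hypertrophic replicate 1 are named, as are *Lims2* from proliferative to hypertrophic and *Tns1* from resting to hypertrophic. The members and lists were chosen with earlier results of these data known. Same-numbered libraries deviated together between WT resting and WT proliferative (*r* of 0.281, 0.179 and 0.198 across genes), and the fit with the number as a block is given there.

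Alternatives tried were each library left out, the replicate block, a joint fit of all 12 libraries, quantile normalization, median-of-ratios rescaling, no filter, and a pseudocount of 1. A limit of 5 NRPKM in 2 libraries, with and without hypertrophic replicate 1, was added after seeing the data. The scripts were tested on simulated data.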

Additional observations from a re-analysis of the deposited data

How the results depend on the processing

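The 10 calls in the 4 pairwise comparisons kept their direction in all 138 alternative fits and lost the call in 27. In the other direction, 17 of 726 alternative fits of uncalled members gave a call, and no called value changed sign. From resting to proliferative the count of called members, 1 in the report, was 2 with a pseudocount of 1, with the replicate block, with all 12 libraries and with the limit of 5 NRPKM in 2 libraries, 5 with no filter, and 1 to 3 when a library was left out. From proliferative to hypertrophic it was 4 of 16 (9.67% of all genes), and 1 to 4 when a library was left out (1 without proliferative replicate 2). Shares of all genes over those fits were 6.02% to 18.4%. With the limit of 2 libraries and no hypertrophic replicate 1 it was 8 of 20 (20.6% of all genes). Among them were *Itgb3*, *Itgb2* and *Itgam*, which entered through hypertrophic replicates 2 and 3. From resting to hypertrophic it was 4 of 16 (13.0% of all genes), with 11 of 37 under no filter (12.5% of the 22206 genes then tested). It was 2 to 5 of 16 when a library was left out (2 without resting replicate 1), against 10.9% to 19.2% of all genes. With the limit of 2 libraries and no hypertrophic replicate 1 it was 7 of 20 (21.6%), with *Itgb3*, *Itgb2* and *Itgam* again among them. Between *aadd* and WT resting it was 1, with 2 under a pseudocount of 1 and the replicate block, 3 under no filter and the limit of 2 libraries, 0 with all 12 libraries, and 1 to 2 when a library was left out. The 3 under no filter were *Lama2* (higher), *Itga8* and *Lamb3* (lower), against 5.82% of all genes then tested. Under the limit of 2 libraries they were *Lama2* (higher), *Itga8* and *Itgb3* (lower), against 6.86%. In the comparison of 4 groups the count of members was 3 of 16 (13.8% of all genes), and 2 to 8 when a library was left out (8 without hypertrophic replicate 1, 28.1% of all genes). The cause of these changes was not tested beyond the number of genes and libraries that entered. In the comparisons other than resting to proliferative, same-numbered libraries did not all deviate together (*r* of -0.097 to 0.280), so the block there rests on a number alone. With it, 3 of 16 members were called from proliferative to hypertrophic and 4 from resting to hypertrophic, against 9.38% and 13.4% of all genes.

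At this depth, values under about 1 NRPKM rest on few reads for most of these genes, and differences among them are not read as changes.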
